A study of Mus musculus with 16 samples.

Results

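Genes of fatty acid oxidation and acyl-CoA metabolism were examined for histone H3 lysine 9 beta-hydroxybutyrylation (H3K9bhb) in the cortex of fasted mice. The set held 39 protein-coding genes chosen by symbol, out of 21887 protein-coding genes on the assembled chromosomes of GRCm38.p6, the build called mm10. All 39 were found in the RefSeq gene table and none was dropped, so a gene without a region counts as much as a gene with one. For each gene, regions from the authors' list of fasting-enriched H3K9bhb were taken if they overlapped the 1 kb on either side of a gene end, and separately if they lay in the gene body, between its ends.

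Mice fasted for 48 h were set against mice fed ad libitum. Mice of both states were C57BL/6J at postnatal day 35, and the tissue was occipital cortex, labelled as a cortex homogenate. The labels describe 4 immunoprecipitated and 4 input libraries of fasted mice, and 4 immunoprecipitated and 4 input libraries of ad libitum fed mice, 16 in all. The authors deposited 8404 regions enriched in fasted mice and 1 region enriched in ad libitum fed mice. Each region carries 1 value, the authors' log likelihood ratio (log-LR), of unstated log base. No value per library is listed, so no fold change, replicate spread or test between mice could be computed, and the depth is unknown. A list of differences also cannot show how much of the mark a gene carries in either state. In a homogenate, a change in the mix of cells and a change of the mark per cell cannot be told apart.

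Fatty acid oxidation shortens acyl-CoA in the mitochondrion by repeated rounds of dehydrogenation, hydration, a second dehydrogenation and thiolysis. Long chains enter through a carnitine shuttle, and the electrons released pass to the respiratory chain. In fasting the liver runs this pathway hard and exports part of its acetyl-CoA as the ketone body beta-hydroxybutyrate, the source of the acyl group of this histone mark. The adult brain takes up ketone bodies readily but oxidises rather little fatty acid, most of it in astrocytes.

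Few of these genes carried a fasting-enriched region. A region lay at a gene end in 4 of the 39, or 10.3% (95% Wilson interval 4.06 to 23.6), against 2609 of all 21887 protein-coding genes, or 11.9%. The share of the fatty acid genes was thus close to that of genes in general. The 4 genes were Acadl, Acaa1a, Acot7 and Mlycd, and between them they held 5 regions. The gene body held a region in 3 of the 39 (7.69%, 2.65 to 20.3), namely Acadl, Acaa1a and Mlycd, against 16.4% of all protein-coding genes. With either location counted, the same 4 of 39 genes had a region, against 18.1% of all. The intervals cover counting error only.

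**Figure D1:**
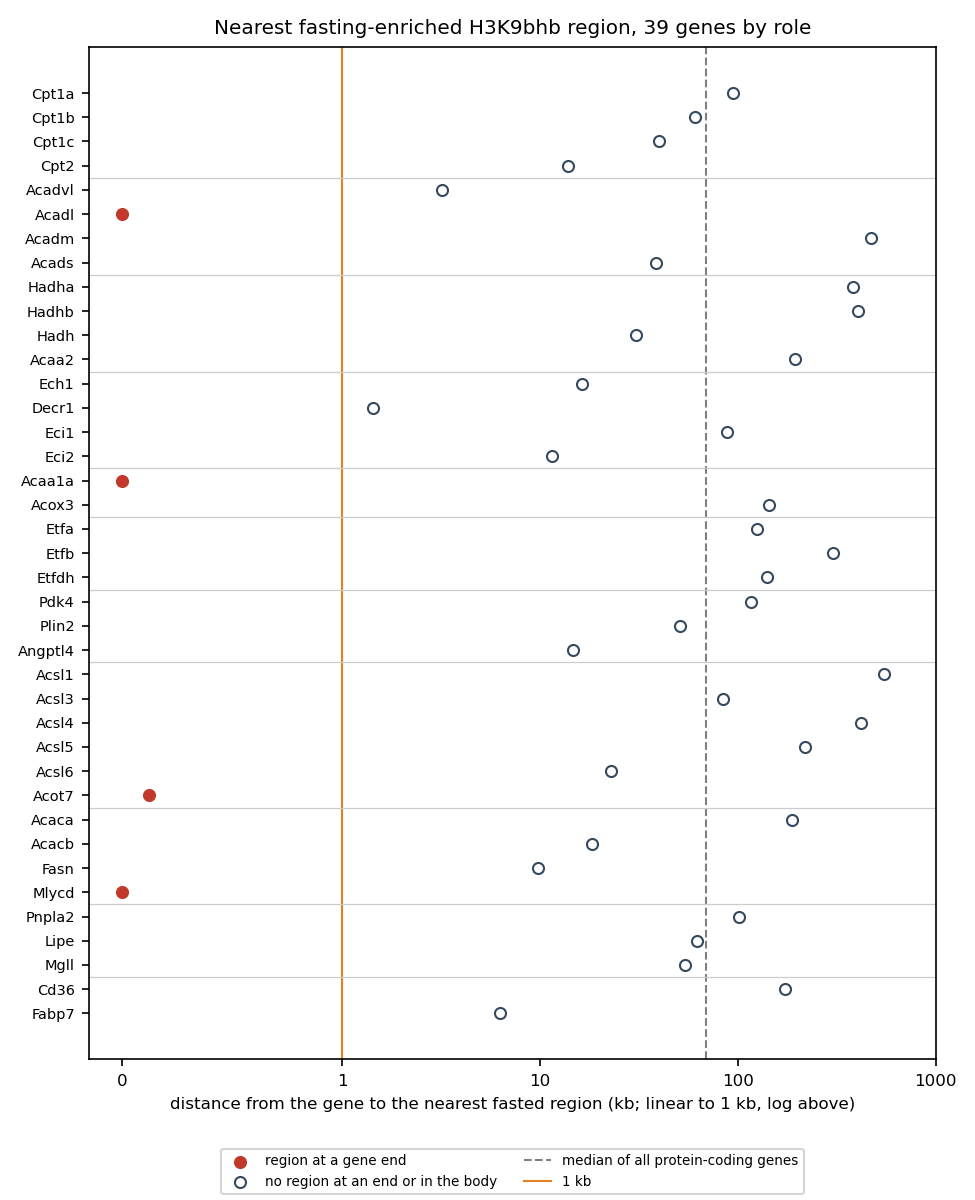
Distance in kb from each of the 39 genes to the nearest fasting-enriched region, on an axis that is linear up to 1 kb and logarithmic above, with genes grouped by role from the carnitine shuttle at the top to binding and uptake at the bottom. Filled points are the 4 genes with a region at an end (Acadl, Acaa1a and Mlycd at 0 and Acot7 at 0.122 kb), open points are the other 35, the solid line marks 1 kb and the dashed line the median of all protein-coding genes, 69.2 kb.

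Acyl-CoA dehydrogenases carry out the first step of each round on chains of different length. Of the 4 in the set, 1 (Acadl) had a region, beside 18.1% of all protein-coding genes. Acadl encodes the long-chain enzyme. Its region, at chr1:66863184-66863321, was 138 bp wide with a log-LR of 5.51, the highest among the 39 genes. It spanned the listed start site of this minus-strand gene, beginning 12 bases upstream of it and ending 125 bases downstream. Acadvl, Acads and Acadm had no region at an end or in the body. The nearest region was 3.19 kb from Acadvl, the very-long-chain enzyme gene, and lay inside its neighbour Dlg4. It was 38.5 kb from the short-chain gene Acads and 469.9 kb from the medium-chain gene Acadm.

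The Acadl promoter is shown because among the listed promoter windows of the set it is the one that a fasted region reached. It covers 250 bases before the start site and 30 bases from it, at chr1:66863280-66863559 on the minus strand, read 5′ to 3′ from RefSeq sequence of GRCm38.p6. Capitals mark the 42 bases inside the fasted region.

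Acadl: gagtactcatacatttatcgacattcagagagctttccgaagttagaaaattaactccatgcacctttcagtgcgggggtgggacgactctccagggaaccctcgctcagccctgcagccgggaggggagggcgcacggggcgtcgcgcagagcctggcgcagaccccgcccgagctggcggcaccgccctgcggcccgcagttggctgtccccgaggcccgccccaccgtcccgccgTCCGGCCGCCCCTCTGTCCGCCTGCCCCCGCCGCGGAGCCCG

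This stretch held 30 CpG dinucleotides in 280 bases. In the whole 300-base entry Acadl had 34 CpG and a GC content of 70.3%, against medians of 17 CpG and 60.7% over the 35 fatty acid genes with a promoter entry, and 13 CpG and 56.3% over the 17492 protein-coding genes with one.

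The peroxisome runs its own form of the pathway on very long and branched chains. Acaa1a, which encodes a peroxisomal thiolase, had a region of 164 bp at chr9:119341676-119341839 with a log-LR of 3.59. The region lay inside the gene, from 382 to 545 bases downstream of the listed start site, and its near edge was 648 bp from the gene end. It was the weakest of the 5, and 94.1% of all fasted regions had a higher log-LR. Acaa1a has a closely similar paralogue, Acaa1b, on the same chromosome. How reads that match both were placed is not given in the sources used here, so the region's assignment to Acaa1a is uncertain. Acaa1b itself had no region. Acox3, which encodes a peroxisomal acyl-CoA oxidase, lay 144.0 kb from the nearest one.

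Mlycd encodes malonyl-CoA decarboxylase, which removes the inhibitor of the carnitine shuttle. Its region was 135 bp wide, at chr8:119395167-119395301, with a log-LR of 3.63. It lay from 273 to 407 bases downstream of the listed start site, inside the gene. Acaca, Acacb and Fasn, which make or use malonyl-CoA, had no region. In this group of 4 genes, Mlycd included, 1 thus had a region, beside 18.1% of all protein-coding genes. Acaca and Acacb, which encode the acetyl-CoA carboxylases, were 187.4 kb and 18.2 kb from the nearest one, and that of Acacb lay inside Alkbh2. Fasn, the fatty acid synthase gene, was 9.75 kb from one at an end of Dus1l.

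The promoters of Acaa1a and Mlycd are shown for comparison with Acadl, since their regions lie downstream of this window and not in it. Both are plus-strand stretches of 280 bases from RefSeq, at chr9:119341044-119341323 and chr8:119394644-119394923. Capitals mark matches on either strand to CCAAT in both promoters and to CCGGAAG, an ETS factor motif, which only Mlycd of the pair holds.

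Acaa1a: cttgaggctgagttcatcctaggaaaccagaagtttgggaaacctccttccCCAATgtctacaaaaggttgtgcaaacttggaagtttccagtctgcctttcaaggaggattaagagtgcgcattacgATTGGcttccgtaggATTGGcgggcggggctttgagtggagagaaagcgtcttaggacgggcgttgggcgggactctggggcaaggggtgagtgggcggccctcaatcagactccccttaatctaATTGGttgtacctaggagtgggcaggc
Mlycd: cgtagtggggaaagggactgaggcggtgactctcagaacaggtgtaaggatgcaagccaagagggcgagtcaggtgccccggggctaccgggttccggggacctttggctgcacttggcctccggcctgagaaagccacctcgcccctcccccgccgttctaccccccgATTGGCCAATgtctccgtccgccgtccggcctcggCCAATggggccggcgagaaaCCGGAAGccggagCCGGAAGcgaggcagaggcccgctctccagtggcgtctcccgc

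The printed Acaa1a stretch had 10 CpG and the Mlycd stretch 25. CCAAT occurred in the promoter entries of 19 of 35 fatty acid genes (54.3%) and of 42.3% of all protein-coding genes, and CCGGAAG in 3 of 35 (8.57%) and 12.9%. Of the other motifs searched on both strands, the ERR motif TCAAGGTCA was found in Acsl6, the NRF1 motif in Etfdh, and the E-box CACGTG in Plin2, Lipe and Mgll, none of which had a fasted region. They were held by 0.377%, 1.47% and 8.91% of all protein-coding promoters. The paired AGGTCA element for PPAR with RXR, which shares AGGTCA with the ERR motif, and the CREB motif TGACGTCA were in 0 of the 35 and in 0.0572% and 2.54% of all. A match is a match of letters in a window of 300 bases and was not tested as a binding site.

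Acot7 encodes the main acyl-CoA thioesterase of brain, abundant in neurons, which splits acyl-CoA into free fatty acid and coenzyme A. It had 2 regions, 69 bp apart, both just outside the gene. The nearer one, at chr4:152177791-152177978, was 188 bp wide with a log-LR of 4.47 and ended 122 bp upstream of the outermost annotated end. The other, at chr4:152177595-152177721, was 127 bp wide with a log-LR of 4.15 and lay 379 bp from that end. No other protein-coding gene had an end or body at either. The start site listed in the promoter table lies 7.51 kb further into the gene, so both regions sat at the 5′ end of the longest annotated extent and not at the listed start. The promoter at the listed start, with 6 CpG, is therefore not shown.

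Acot7's partners that attach coenzyme A to fatty acids, the long-chain acyl-CoA synthetases, had no region in any of 5 genes, beside 18.1% of all protein-coding genes. Acsl6, a brain-rich form, was 22.8 kb from one inside Meikin, and Acsl3 was 83.8 kb away. Acsl5, at 218.4 kb, Acsl4, at 419.0 kb, and Acsl1, at 548.3 kb, were far from any. Acsl4 was the 1 gene of the set on the X chromosome.

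**Figure D2:**
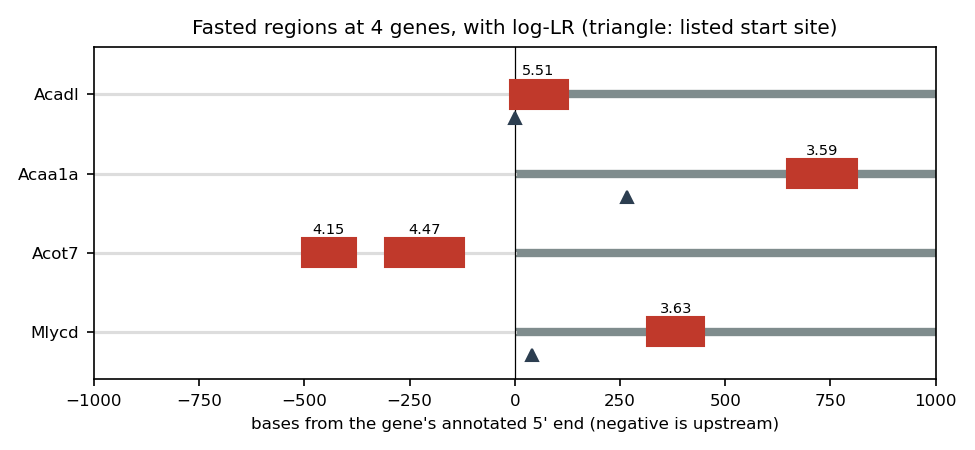
Fasted regions (boxes, with log-LR above) at the 4 genes, in bases from each gene's annotated 5′ end, where the thick line is the gene, negative positions are upstream and triangles mark the start site listed in the promoter table (that of Acot7 is off the axis). Regions of Acaa1a and Mlycd lie inside the gene, that of Acadl spans the 5′ end, and both of Acot7 lie upstream.

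All 5 regions lay at the start side of their gene. With strand taken from the promoter table, 4 of the 35 fatty acid genes with a strand had a region at the start end (11.4%), against 11.5% of all 17492 such genes. At the transcript end the count was 0 of 35, which allows a share of up to 8.57%, against 0.863% of all. Location at the start side is thus what fasted regions at gene ends show in general. Counted around the listed start sites in place of the gene ends, 3 of 35 had a region within 1 kb, against 13.2% of all, and Acot7 was the gene lost. In 9 genes a listed start site lay over 1 kb inside the gene, among them Acaca at 65.8 kb from the 5′ end, Cd36 at 53.1 kb and Eci2 at 33.0 kb. None (0) of the 10 such sites had a region within 1 kb, and the nearest region was 7.63 to 593.4 kb away. The share for such sites over all genes was not computed, so this count says little of these genes.

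The carnitine shuttle admits long chains to the mitochondrion and is the main point of control. None (0) of the 4 genes grouped under it had a region at an end or in the body, beside 18.1% of all protein-coding genes. Counts this small say little of a group by themselves, here and for the other roles. Cpt1a, the widely expressed outer membrane transferase gene, was 94.2 kb from the nearest one. For Cpt1b, the muscle form, the distance was 60.9 kb. For Cpt1c, a family member expressed in brain, it was 39.8 kb, to a region inside Ap2a1. Cpt2, the inner membrane enzyme gene, was 13.9 kb from a region at an end of Czib.

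None (0) of the 4 genes of the later steps of each round had a region, beside 18.1% of all protein-coding genes. Hadha and Hadhb encode the subunits of the mitochondrial trifunctional protein and lie head to head, and the nearest regions were 382.8 and 404.0 kb away, at ends of Dnajb6 and Kcnk3. Hadh, a hydroxyacyl-CoA dehydrogenase gene, was 30.6 kb from a region inside Cyp2u1. The thiolase gene Acaa2 was 194.6 kb from one inside Rpl17.

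Auxiliary enzymes bring double bonds of unsaturated fatty acids into a form the cycle can use. Decr1, which encodes a dienoyl-CoA reductase, came nearest to the limit from outside, with a region of log-LR 5.32 at 1.43 kb from the gene and in no protein-coding gene. It would be counted with a window of 3 kb. On the inside of the limit, Acaa1a lay farthest from its gene end, at 648 bp. Ech1, Eci1 and Eci2 were 16.3, 88.4 and 11.5 kb from the nearest region. The electron transfer genes Etfa, Etfb and Etfdh, which pass electrons from the dehydrogenases to ubiquinone, were 125.5, 303.8 and 140.9 kb from one.

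Pdk4, Plin2 and Angptl4 are raised by fasting in many tissues, the first as a brake on glucose oxidation, the second as a lipid droplet coat and the third as an inhibitor of lipoprotein lipase. None (0) of the 3 had a region, beside 18.1% of all protein-coding genes. The nearest was 116.5 kb from Pdk4, 51.0 kb from Plin2 at an end of Rraga, and 14.7 kb from Angptl4 at an end of Rab11b. The lipase genes Pnpla2, Lipe and Mgll, which release fatty acids from stored and signalling glycerides, were 101.5, 62.1 and 54.4 kb from one. Cd36, a fatty acid uptake receptor gene, was 172.9 kb away, and Fabp7, a fatty acid binding protein gene of astrocytes and their precursors, was 6.31 kb from a region at an end of Smpdl3a.

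Over the 35 genes without a region the nearest one was at 1.43 to 548.3 kb, with a median of 83.8 kb. It lay at an end of another protein-coding gene for 15 of them, inside one but at no end for 12, and in no protein-coding gene for 8. Over all 39 the median was 60.9 kb, against 69.2 kb for all protein-coding genes, and 38.5% against 40.9% were over 100 kb from any region. The single region enriched in ad libitum fed mice lay 20.9 Mb from the nearest of the 3 fatty acid genes on its chromosome.

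The values of the 5 regions were low within the fasted list. Their log-LR ran from 3.59 to 5.51 with a median of 4.15, against a median of 4.96 and quartiles of 4.16 and 6.28 over all 8404 regions. Acadl was above the median of the list and the other 4 regions were below it. All 5 were narrower than the median region, at 127 to 188 bp against a median of 205 bp. Taking the highest log-LR at each gene's ends, the median was 4.05 over the 4 fatty acid genes and 4.99 over the 2609 protein-coding genes with an end region. None (0) of the 5 lay in a dense array, a run of at least 5 regions with gaps of up to 20 kb. Without such arrays 11.7% of all protein-coding genes had an end region, against 11.9% with them. Few genes in general thus owe an end region to an array.

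**Figure D3:**
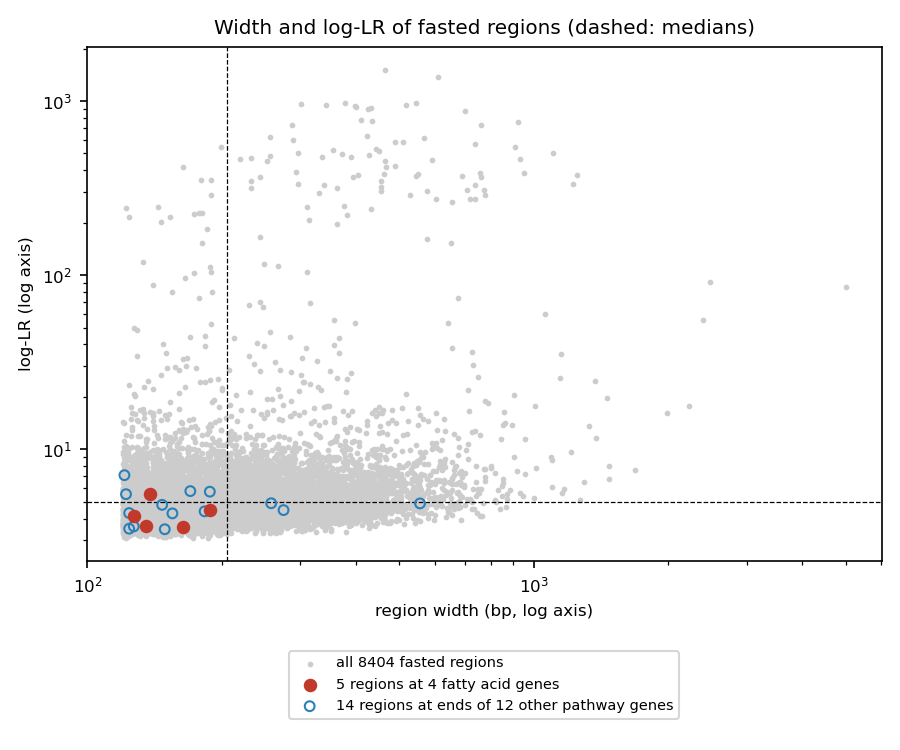
Width in bp against log-LR for all 8404 fasted regions (grey), the 5 regions at 4 fatty acid genes (filled) and the 14 at ends of 12 other genes of the pathway (rings), on logarithmic axes with dashed lines at the medians of all regions, 205 bp and 4.96. The 5 regions all sit left of the median width, and 4 of them sit below the median log-LR.

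How often genes in general held a region differed with gene length and promoter composition. The median length was 28.1 kb for the fatty acid genes, against 17.2 kb for all. None (0) of the 39 held a region in the body over 1 kb from both ends, which allows a share of up to 7.69%, against 7.24% of all genes. Among genes over 30 kb the count was 0 of 18, which allows up to 16.7%, against 16.5%. Any body region was found in 1 of these 18, Acadl (5.56%, 0.988 to 25.8), against 28.5% of all protein-coding genes of that length, a share above the upper bound of that interval. This length class was chosen after the values were seen, and the difference was not tested. The 4 genes over 100 kb, Acaca, Acacb, Mgll and Cd36, had none (0%, Wilson interval 0 to 49.0). Of all protein-coding genes of that length, 40.7% held one.

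A promoter entry was called CpG-rich at a GC content of at least 50% and an observed to expected CpG ratio of at least 0.6, and a gene with several entries by any 1 of them, as for Acsl6. By this measure 18 of 35 fatty acid genes (51.4%) had a CpG-rich promoter, against 48.3% of all. Of all protein-coding genes with such a promoter, 20.4% had an end region, against 4.26% of those with another promoter. Among the fatty acid genes the shares were 2 of 18 (11.1%, 3.10 to 32.8), Acadl and Mlycd, with a CpG-rich promoter, and 2 of 17 (11.8%, 3.29 to 34.3), Acaa1a and Acot7, without. Acot7 is classed here by a promoter entry 7.51 kb from the gene end where its regions lie. Counted within 1 kb of a listed start site, the genes without a CpG-rich promoter gave 1 of 17 (5.88%, 1.05 to 27.0). The share of all such genes was 3.71%. By the same count, the genes with a CpG-rich promoter gave 2 of 18 (11.1%, 3.10 to 32.8), against 23.5% of all. Genes with CpG-rich promoters and no region included Fasn with 39 CpG, Acsl3 and Acsl4 with 33 each, Mgll with 32, Acsl1 with 30 and Cpt1a with 22. The intervals of the fatty acid genes are wide, and they hold the shares of all genes in both classes.

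**Figure D4:**
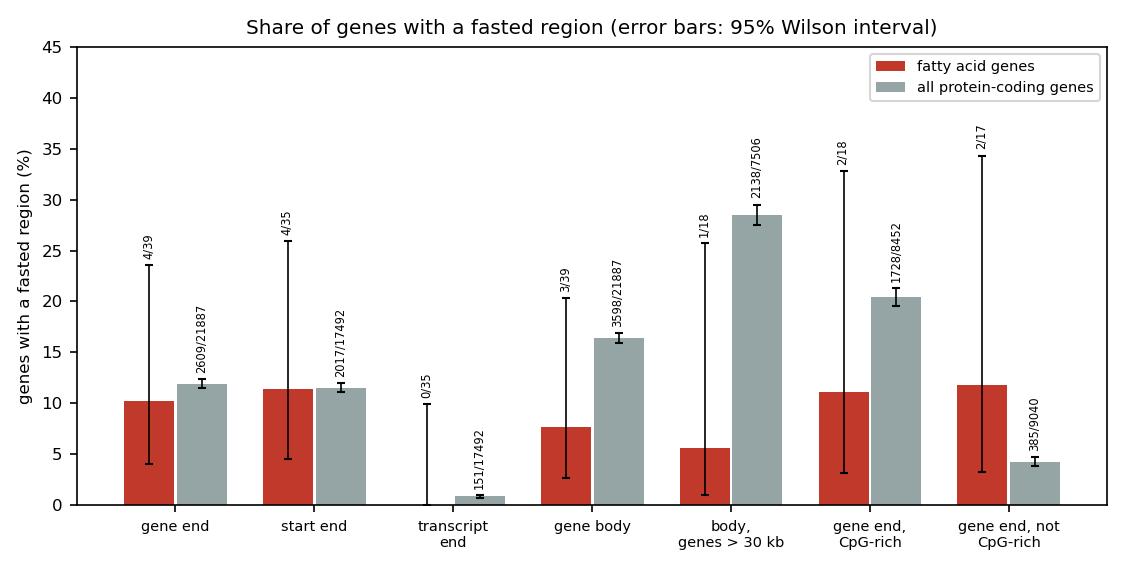
Percent of genes with a fasted region among the fatty acid genes (left bar of each pair) and all protein-coding genes (right bar), by location, gene length over 30 kb and promoter class, with 95% Wilson intervals and counts. The pairs for gene ends, 10.3% and 11.9%, lie close together, and the interval of the fatty acid genes lies below the share of all in 1 pair, gene bodies over 30 kb.

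Other genes of the pathway had end regions at a share that was also close to that of all genes. In a list of 108 further genes of fatty acid transport, activation, oxidation, synthesis, storage and coenzyme A synthesis, 12 had a region at a gene end (11.1%, 6.47 to 18.4), again beside 11.9% of all. In the gene body the share was 13.0% (7.88 to 20.6) against 16.4% of all, and at either location 13.9% (8.60 to 21.7) against 18.1%. Over the 12 genes with an end region, the highest log-LR per gene had a median of 4.85. Acadsb, which encodes a dehydrogenase of short branched chains, had the highest at 7.11, in a window shared with Ikzf5. Crot, the carnitine transferase gene of the peroxisome, had 5.76, and Elovl4, an elongase gene for very long chains, 5.72 in a region that reached the listed start site. Next were the desaturase gene Scd2 at 5.53, Acsf3, a malonyl-CoA synthetase gene, at 4.91, the elongation dehydratase gene Hacd3 at 4.89 and the citrate carrier gene Slc25a1 at 4.80. Below these were the peroxisomal multifunctional enzyme gene Hsd17b4 at 4.41, the carnitine acetyltransferase gene Crat at 4.31 in a window shared with Ptpa, and the triglyceride synthesis gene Dgat1 at 4.29. Mecr, of mitochondrial fatty acid synthesis, had 3.50, and Dagla, which encodes a diacylglycerol lipase of endocannabinoid synthesis, 3.48. With the 39 genes added, 16 of 147 had an end region.

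Cell type markers were looked up in the same list, for description only. Of 24 markers of neurons, astrocytes, oligodendrocytes, microglia and endothelium, 2 had an end region, beside 11.9% of all protein-coding genes. These were the oligodendrocyte genes Mbp and Cnp. A body region was found in 3, Mbp, Cnp and the neuronal gene Rbfox3, beside 16.4% of all. Of 9 markers of liver, skeletal muscle and adipose tissue 0 had a region at either location, beside 18.1% of all. Counts this small say little of any cell type. A list of differences cannot show which cells were present.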

How the data were processed

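Chromatin from occipital cortex was sonicated and immunoprecipitated with an antibody to H3K9bhb, per the labels' protocols. The submitters' processing notes list Bowtie2, MACS2 and mm10, with no version or role. The authors deposited 2 region lists with 1 log-LR each, per the file headers, used here as a score. Its log base, the cutoff, depth scaling, pooling of libraries and filters are not stated there, and a difference in depth or yield between the states would move the number of regions. The smallest deposited log-LR was 3.11.

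Starts were read as counted from 0 and are printed from 1. Gene extents came from RefSeq for GRCm38.p6, and strand, start sites and sequence from its promoter table (250 bases before and 50 from each start), which had entries for 35 of the 39 genes. Cpt1b, Decr1, Acaa2 and Angptl4 are without one. Exons and introns were not separated. An overlap of 1 base counted. Fasted regions on chromosomes 1 to 19, X and Y numbered 8221.

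The genes, pathway list and markers were chosen with earlier results of these data known, as were the CpG and length classes, so no set test was run. All 39 genes are reported, and of the pathway list the 12 with an end region. The 3 with a body region only were chosen after their values were seen. Intervals are 95% Wilson intervals. The limit for a count of 0 is 3 counts, except for the 4 genes over 100 kb, where the Wilson interval is given. The overlap step was tested on 5 simulated sets. Overlaps were computed in Python 3.11.15 with pandas 2.3.3 and numpy 2.4.6, intervals with scipy 1.17.1, and figures with matplotlib 3.10.9.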

Additional observations from a re-analysis of the deposited data

How the results depend on the processing

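Of 58 alternative values over 11 settings, 40 stayed close to the reported ones and 18 moved. The overlap by centre or by most of the region, merging within 1 kb, leaving out dense arrays and starts counted from 1 moved no count by over 1.5 times. Log-LR limits select on the deposited value itself. At 5 or more, 1 fatty acid gene (Acadl) had a region, whether at an end, in the body or either, beside 5.90% of all protein-coding genes at an end and 8.80% in the body, and 4 pathway genes had one at an end. At 10 or more, 0 fatty acid and 0 pathway genes had one, beside 0.183% and 0.567% of all. With windows of 500 bp and 3 kb the fatty acid genes with an end region numbered 3 and 5, and the share of all genes was 9.55% and 14.7%. Acaa1a was lost at 500 bp and Decr1 gained at 3 kb. At the transcript end alone, 0 fatty acid and 0 pathway genes had a region, beside 0.863% of all. At the start end alone, 7 pathway genes had one, among the 80 with a strand, beside 11.5% of all. Crat, Hsd17b4, Scd2, Dgat1 and Dagla were not counted there because they had no listed strand. All 8 pathway end regions with a strand lay at the start end. No paired analysis was possible because values per library are not listed, and leaving out replicates was not run for the same reason. Depth is unknown, and 39 genes leave wide intervals, so a share that differs moderately from that of all genes was not detectable.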

Other observations

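Among the 108 further pathway genes, 3 had a fasted region in the body and none at an end of the annotated gene. Each of these regions lay over 1 kb from both ends. Such regions were found in 3 of the 108 genes (2.78%, 0.949 to 7.85), against 7.24% of all protein-coding genes. Pank1, a pantothenate kinase gene for coenzyme A synthesis, had a region of 141 bp with a log-LR of 5.86 that began 552 bases downstream of its listed start site, which lies inside the annotated gene. Faah, which encodes the amidase that breaks down anandamide, had one of 220 bp with a log-LR of 5.14, from 305 to 524 bases downstream of its listed start site. Both would count as regions at a start site had listed start sites been used in place of gene ends. Lpin1, a phosphatidate phosphatase gene of glyceride synthesis, had a region of 234 bp with a log-LR of 4.79. The Lpin1 region began 21262 bases downstream of the listed start site and lay 53.8 kb from the transcript end, the nearer gene end.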
